A study of Mus musculus with 8 samples.

Results

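Zeb2, its antisense transcript Zeb2os and 6 other transcription factors known from mesenchymal cells (Zeb1, Snai1, Snai2, Twist1, Twist2 and Prrx1) were followed in mouse bone marrow derived macrophages. These 8 genes of 55421 in the table were selected on the TPM of Zeb2os, which had been higher in Baf60a knockout cells in an earlier fit of the same data, and the others were added as its relatives. The difference of Zeb2os between the groups is therefore a description with no test. RNA was sequenced from 4 wild-type (WT) and 4 Baf60a knockout (Baf60a KO) libraries of primary bone marrow cells differentiated into macrophages, all taken at day 7. No other allele or agent is named for either group. How and where the gene was deleted, and the age of the mice, is not given in the sources used here. Baf60a is encoded by Smarcd1, whose product belongs to the BAF (SWI/SNF) family of chromatin remodellers, and the comparison asks which transcripts differ where it is deleted. Nothing in the labels tells whether replicate libraries are of different mice or dishes, and a p-value here measures only the spread between these libraries, which may be technical.

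ZEB, SNAIL and TWIST proteins are best known as drivers of the epithelial to mesenchymal transition, in which cells give up junctions and take on a migratory, matrix-producing state. ZEB and SNAIL factors are zinc finger proteins that mostly repress genes, among them E-cadherin, through E-box motifs. TWIST factors are basic helix-loop-helix proteins that work as dimers with E proteins, and PRRX1 is a homeobox factor of mesenchymal and limb cells. Among blood cells, ZEB2 is expressed across the mononuclear phagocytes, where it helps to hold macrophage and dendritic cell identity. The antisense transcript of ZEB2 has been described to cover a splice site in the untranslated leader of ZEB2, which leaves an intron in the message and favours its translation.

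Values are TPM, transcript abundance corrected for gene length and scaled to the same total of 1000000 in each library, so the depth of each library cannot be told. The number of genes above 1 TPM was 13727 to 14027. Processed pseudogenes took 12.004% and 12.25% of TPM of 2 WT libraries (replicates 3 and 4), against 6.78% to 8.38% elsewhere, and results are therefore also given without them. Smarcd1 averaged 14.8 ± 0.998 TPM over the WT libraries (SD, n = 4) and 10.5 ± 0.447 over the KO libraries, with no KO library reaching the WT range (log2 fold change -0.47, limma adjusted p = 0.00756). Transcripts of the gene thus remained in the KO libraries, and a gene total does not show whether they lack the deleted part. Macrophage markers were strongly expressed (Cd68 at 1472 TPM and Adgre1 at 273 TPM in WT), but so were genes of fibroblasts and smooth muscle cells (Col1a1 at 1534 TPM and Acta2 at 1241 TPM in WT). In such bulk samples fewer cells of a type and less RNA per cell cannot be told apart.

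Zeb2os lies within the span of Zeb2 on chromosome 2, near the 5′ end of Zeb2, and is read from the opposite strand. In GENCODE M21 (build mm10, GRCm38), Zeb2os spans chr2:45110707-45114087 on the plus strand and Zeb2 spans chr2:44983632-45117395 on the minus strand. The annotation holds 6 Zeb2os and 29 Zeb2 transcripts, and 18 of the 29 start beyond the Zeb2os start and so run back through the antisense gene, while 11 start short of it. Of 1990 exonic Zeb2os bases, 653 (32.8%) are also in an exon of Zeb2, and 560 (28.1%) in an exon of a protein-coding Zeb2 transcript. None of them (0 bases) is in the Zeb2 coding sequence, so the overlap is confined in this annotation to leader and noncoding exons. Only 3.27% of the 19942 exonic Zeb2 bases are shared. The NEBNext Ultra RNA kit named in the labels is not stated to mark strand. Whether reads from the shared bases can be told apart by strand is therefore not known. The same holds for reads of unspliced Zeb2 RNA over the other Zeb2os exons, since all of Zeb2os lies within the span of Zeb2. The part of such reads in the values of both genes was not tested.

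**Figure D1:**
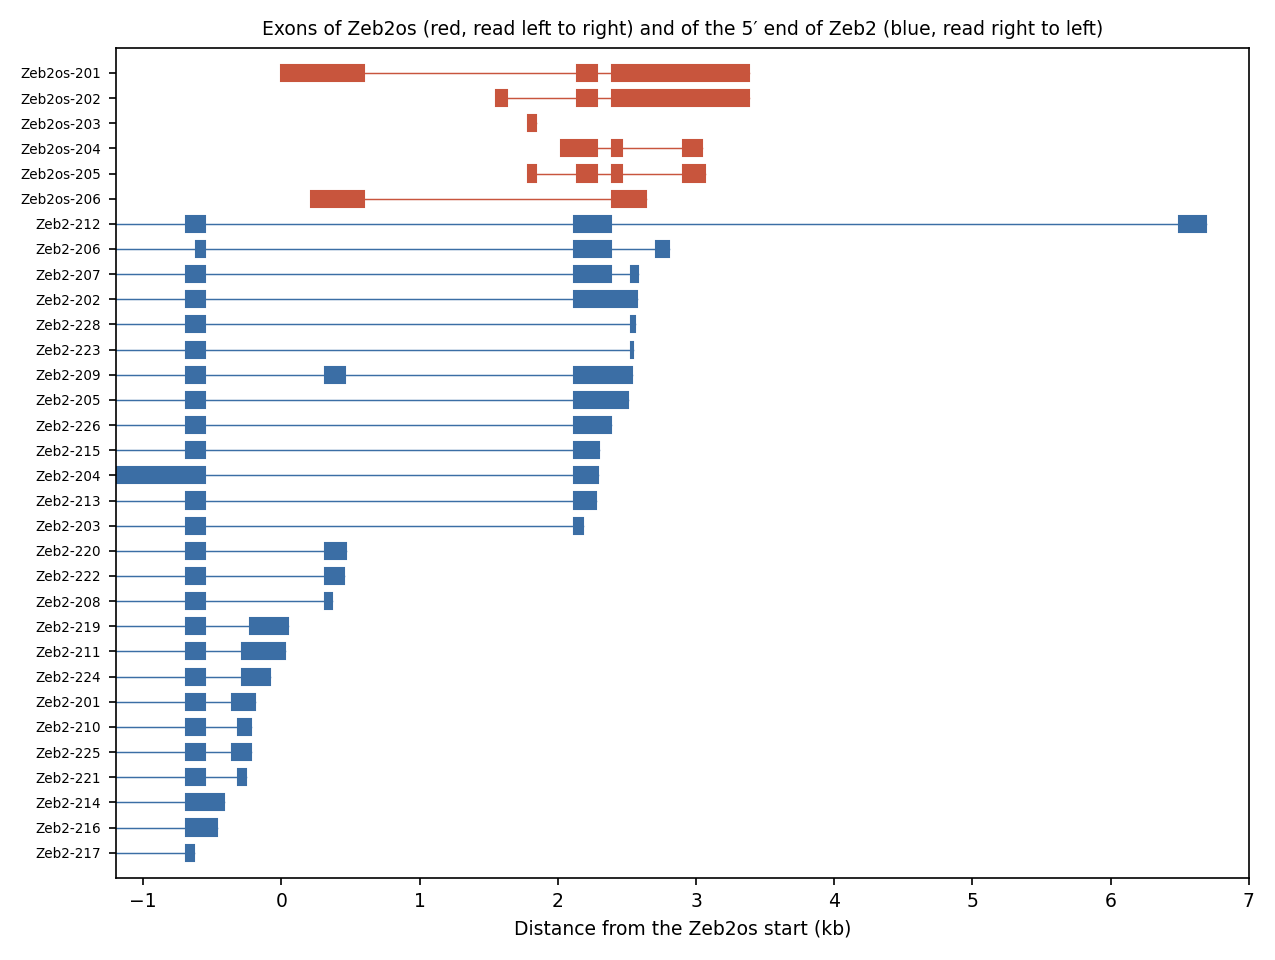
Exons (boxes) and introns (lines) of the 6 Zeb2os transcripts in red and of the Zeb2 transcripts with an exon in the plotted stretch in blue, by distance in kb from the Zeb2os start (x axis). Zeb2os is read to the right and Zeb2 to the left. Exons of both genes share 5 stretches of 48 to 186 bases, and the longest 2, of 171 and 186 bases, lie from 2116 to 2286 and from 2392 to 2577 bases after the Zeb2os start.

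Exons of Zeb2os run across 4 Zeb2 splice donors in this annotation. The donor with the most Zeb2 transcripts, 11 of 29, ends a leader exon at position 45112823, and the other 3 are used by 4, 3 and 1 transcripts. The 30 bases around it, chr2:45112808-45112837, are shown on both strands, 5′ to 3′, from the Zeb2os-204 transcript and its reverse complement, because this is the most used of the 4 donors. Capitals mark the first 2 intron bases of Zeb2 and, on the Zeb2os strand, their complement.
Zeb2 splice donor: aacaagacttcacagGTaggtttcccaccc
Zeb2os opposite the Zeb2 splice donor: gggtgggaaacctACctgtgaagtcttgtt
In this annotation 1 of the 6 Zeb2os transcripts, Zeb2os-204, has an exon across this donor, and 2, 3 and 2 of the 6 have one across the donors at 45111020, 45113236 and 45113416. Gene totals do not separate these transcripts, nor spliced Zeb2 messages from those that keep the intron.

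Upstream of this exon, an exon of Zeb2os and the window before a Zeb2 start are the same DNA. The RefSeq window before the Zeb2 start at 45113279 (GRCm38.p6, minus strand), trimmed where a protein-coding Zeb2 exon begins, covers chr2:45113285-45113529. All 245 of its bases lie in a Zeb2os exon. It is printed because the region from which Zeb2 starts and the RNA that differed between the groups coincide here, and capitals mark its 1 match to CACCT (reverse complement AGGTG), the short E-box core that ZEB factors bind.
Zeb2 upstream: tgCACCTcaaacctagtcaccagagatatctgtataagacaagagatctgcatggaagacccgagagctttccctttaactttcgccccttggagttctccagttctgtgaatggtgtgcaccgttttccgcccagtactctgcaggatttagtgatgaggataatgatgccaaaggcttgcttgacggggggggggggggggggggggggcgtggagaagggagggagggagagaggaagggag
CACCT or its reverse complement was found in 15100 of 32851 RefSeq windows of 250 bases (46%), so a match is common and is a description of letters only.

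Zeb2os was higher in the Baf60a KO cells. From replicate 1 to 4, WT libraries held 14.64, 14.39, 14.60 and 15.06 TPM, and KO libraries held 21.72, 24.03, 22.34 and 22.22 TPM. All 4 KO libraries lay above all 4 WT libraries, and the WT libraries lay within 1 TPM of each other. The means were 14.7 ± 0.281 and 22.6 ± 1.005 TPM (SD, n = 4 each), a ratio of 1.54, and the log2 fold change of TPM + 1, KO minus WT, was 0.59 (SE 0.047). Leaving out any 1 library gave between 0.56 and 0.61. At 18.6 TPM over all libraries, Zeb2os stood above 56.3% of the 13933 genes tested.

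Zeb2 itself fell, in the opposite direction to its antisense RNA. It stood at 82.34, 80.39, 68.27 and 74.80 TPM in WT replicates 1 to 4 and at 60.36, 62.40, 60.65 and 62.96 TPM in KO replicates 1 to 4. The highest KO library was below the lowest WT library, WT replicate 3, and the spread was far wider in WT. Means were 76.45 ± 6.32 and 61.6 ± 1.28 TPM, a ratio of 0.806 and a log2 fold change of -0.30 (SE 0.060, adjusted p = 0.0285). The call was lost without WT replicate 2 (adjusted p = 0.0599), WT replicate 4 (0.0687) or KO replicate 1 (0.0769), 2 (0.0714), 3 (0.0824) or 4 (0.0792), while the log2 fold change stayed between -0.36 and -0.27. With both WT replicates 3 and 4 left out it was -0.40 (adjusted p = 0.0104).

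Set against each other within a library, Zeb2os and Zeb2 stood in another proportion in each group. From replicate 1 to 4, their ratio (Zeb2os over Zeb2) took the values 0.178, 0.179, 0.214 and 0.201 for WT and 0.360, 0.385, 0.368 and 0.353 for KO. Zeb2os thus stood at 0.193 ± 0.0176 of the Zeb2 level in WT and at 0.367 ± 0.0139 in KO, a description that contains the values which chose the set. The summed level of both genes was 91.1 ± 6.26 TPM in WT and 84.2 ± 1.99 in KO, with groups that overlapped. Within a group the libraries did not line up: KO libraries with more Zeb2os did not hold less Zeb2, and after the group means were taken out Pearson's r over the 8 libraries was 0.0224, a description with no test.

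**Figure D2:**
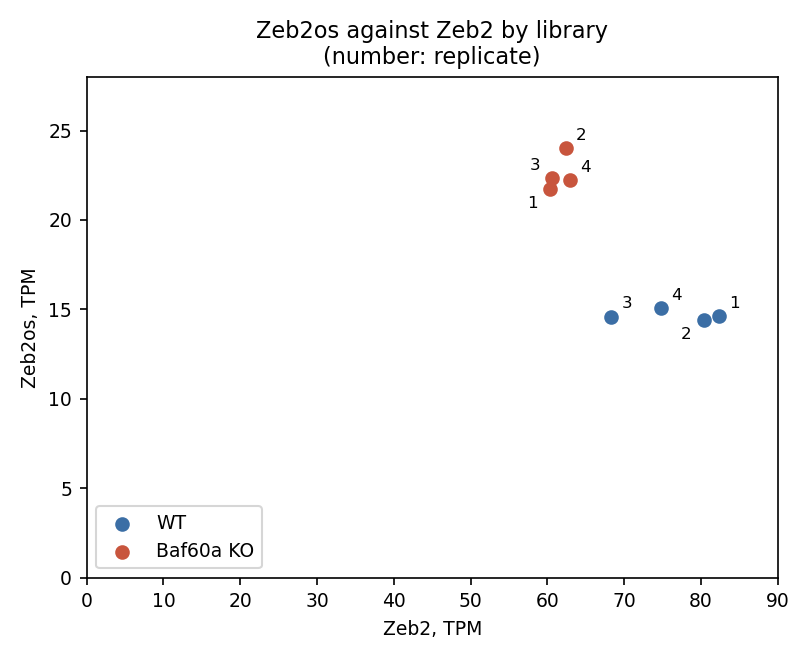
Zeb2os (y axis, TPM) against Zeb2 (x axis, TPM) in the 4 WT and 4 Baf60a KO libraries, numbered by replicate. KO libraries sit at 21.72 to 24.03 TPM of Zeb2os and 60.36 to 62.96 TPM of Zeb2, WT libraries at 14.39 to 15.06 and 68.27 to 82.34 TPM.

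Other antisense genes were called at a share near that of all genes. Of 158 tested besides Zeb2os, 3 rose and 4 fell (4.43%), where 5.61% of all 13933 genes were called. They formed 163 pairs with an overlapping coding gene on the opposite strand, and the antisense gene was called in 6 pairs and the coding gene in 16 (9.82%). The log2 fold changes of antisense and coding gene had opposite signs in 81 of the 163 pairs. Zeb2os and Zeb2 are left out of these counts because the rise of Zeb2os chose the set. Next to Zeb2, the glycosyltransferase gene Gtdc1 was the 1 other tested gene within 500 kb, at 12.045 ± 3.98 TPM in WT against 13.8 ± 1.33 in KO (log2 fold change 0.23, adjusted p = 0.555). The annotated RNA Vis1 was listed above 0 in WT replicate 1 (5.24 TPM) and KO replicate 3 (11.83 TPM) alone, and the remaining neighbours were at 0.29 TPM or below in every library.

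The SNAIL factors were higher in KO. Snai1 (chr2:167538195-167542814, plus strand) encodes the zinc finger repressor SNAIL, which acts early in mesenchymal transitions. Its RefSeq window before the start, chr2:167537945-167538194 (GRCm38.p6, plus strand), is printed because SNAIL and ZEB proteins bind E-boxes, and capitals mark its 1 match to CACCTG (reverse complement CAGGTG), at bases -126 to -121 from the start site.
Snai1 upstream: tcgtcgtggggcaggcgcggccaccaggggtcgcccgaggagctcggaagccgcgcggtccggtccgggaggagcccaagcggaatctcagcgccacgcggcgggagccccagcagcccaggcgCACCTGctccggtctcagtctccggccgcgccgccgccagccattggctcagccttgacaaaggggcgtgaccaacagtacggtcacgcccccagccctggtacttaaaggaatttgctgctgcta
CACCTG occurs in 5657 of the 32851 windows (17.2%), and a CACCTG match is also a CACCT match. RefSeq windows were matched for 5 of the 8 genes (8 windows, of which 4 for Zeb2), and CACCTG was found in Snai1 alone among them. CACCT was found in 5 of the 8 windows, 3 of Zeb2 (of which a pair overlap each other), 1 of Snai1 and 1 of Twist1, and the windows of Prrx1 and Twist2 held neither motif.

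Snai1 was at 12.44, 14.09, 11.86 and 10.59 TPM in WT replicates 1 to 4 and at 14.56, 15.81, 16.22 and 16.19 TPM in KO replicates 1 to 4. The groups did not overlap, although WT replicate 2 came within 1 TPM of KO replicate 1. Snai1 rose from 12.25 ± 1.45 to 15.7 ± 0.779 TPM, a log2 fold change of 0.34 (SE 0.082, adjusted p = 0.0495), close to the threshold of 0.05. The call held without WT replicate 2 (adjusted p = 0.0336) and was lost without WT replicate 1 (0.0726), 3 (0.0846) or 4 (0.1002) and without KO replicate 1 (0.0816), 2 (0.116), 3 (0.129) or 4 (0.132), with log2 fold changes between 0.28 and 0.40. Without WT replicates 3 and 4 together it was 0.23 (adjusted p = 0.122).

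Snai2 (chr16:14705852-14709385, plus strand) encodes SLUG, the paralog of SNAIL known from neural crest cells. It was at 25.61, 27.11, 28.25 and 24.39 TPM in WT replicates 1 to 4 and at 33.56, 34.19, 37.05 and 31.30 TPM in KO replicates 1 to 4. Every KO library exceeded every WT library. Snai2 rose, with means of 26.3 ± 1.69 and 34.0 ± 2.37 TPM (adjusted p = 0.0236). The log2 fold change was 0.36 (SE 0.065). Its call was lost without WT replicate 4 (adjusted p = 0.0624) or KO replicate 1 (0.0617), 2 (0.0687) or 3 (0.0634), with log2 fold changes between 0.32 and 0.40, and without WT replicates 3 and 4 together (0.35, adjusted p = 0.0512).

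Between themselves the SNAIL genes stood in similar proportion in both groups. The ratio of Snai2 to Snai1 was 2.167 ± 0.2125 in WT and 2.171 ± 0.171 in KO, with overlapping groups. Against Prrx1, both were higher in KO in every library: the ratio of Snai2 to Prrx1 was 0.725 ± 0.0588 in WT and 0.872 ± 0.0433 in KO, and that of Snai1 to Prrx1 was 0.336 ± 0.0322 and 0.402 ± 0.0157. These ratios describe the same values and carry no test of their own.

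Zeb1 (chr18:5591860-5775467, plus strand), the paralog of Zeb2 and a repressor of epithelial genes in mesenchymal cells, did not pass the test. It was at 10.01, 12, 10.25 and 9.33 TPM in WT replicates 1 to 4 and at 11.80, 10.86, 13.65 and 11.70 TPM in KO replicates 1 to 4, with groups that overlapped (log2 fold change 0.19, SE 0.090, adjusted p = 0.253). Zeb1 and Zeb2 nevertheless stood in another proportion in each group. The ratio of Zeb2 to Zeb1 was 8.23, 6.70, 6.66 and 8.02 in WT and 5.12, 5.75, 4.44 and 5.38 in KO, 7.40 ± 0.837 against 5.17 ± 0.550, and no KO library reached the WT range. This ratio was chosen with the result for Zeb2 in view and was not tested.

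Neither TWIST gene passed. Twist1 (chr12:33957671-33959829, plus strand), which specifies cranial and limb mesenchyme, was at 12.11, 12.91, 11.67 and 11.84 TPM in WT and at 12.23, 12.05, 10.72 and 11.19 TPM in KO. The groups overlapped at 12.1 ± 0.549 and 11.55 ± 0.714 TPM (log2 fold change -0.07 with an SE of 0.060, adjusted p = 0.577). Twist2 (chr1:91801461-91848028, plus strand), a factor of dermal and bone-forming mesenchyme, was the least abundant of the 8 genes. The 4 WT libraries held 2.31, 2.89, 2.37 and 2.62 TPM of it and the 4 KO libraries 3.29, 3.23, 3.17 and 1.93, so 3 KO libraries lay above all WT libraries and KO replicate 4 below them all. The log2 fold change of Twist2 was 0.12 (SE 0.134, adjusted p = 0.661), and 0.26 (adjusted p = 0.185) without KO replicate 4.

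Prrx1 (chr1:163245119-163313710, minus strand) was the second most abundant of the set in WT. It was at 33.26, 40.80, 36.21 and 35.64 TPM in WT replicates 1 to 4 and at 36.39, 39.96, 41.75 and 38.12 TPM in KO replicates 1 to 4. The groups overlapped over most of their range, at 36.5 ± 3.15 and 39.05 ± 2.31 TPM (log2 fold change 0.10 with an SE of 0.069, adjusted p = 0.458). The low-level antisense or intronic genes annotated over Zeb1, Twist2 and Prrx1 did not exceed 0.40 TPM in any library, unlike Zeb2os over Zeb2. A p above the threshold does not show that Zeb1, Twist1, Twist2 or Prrx1 were equal in both groups.

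**Figure D3:**
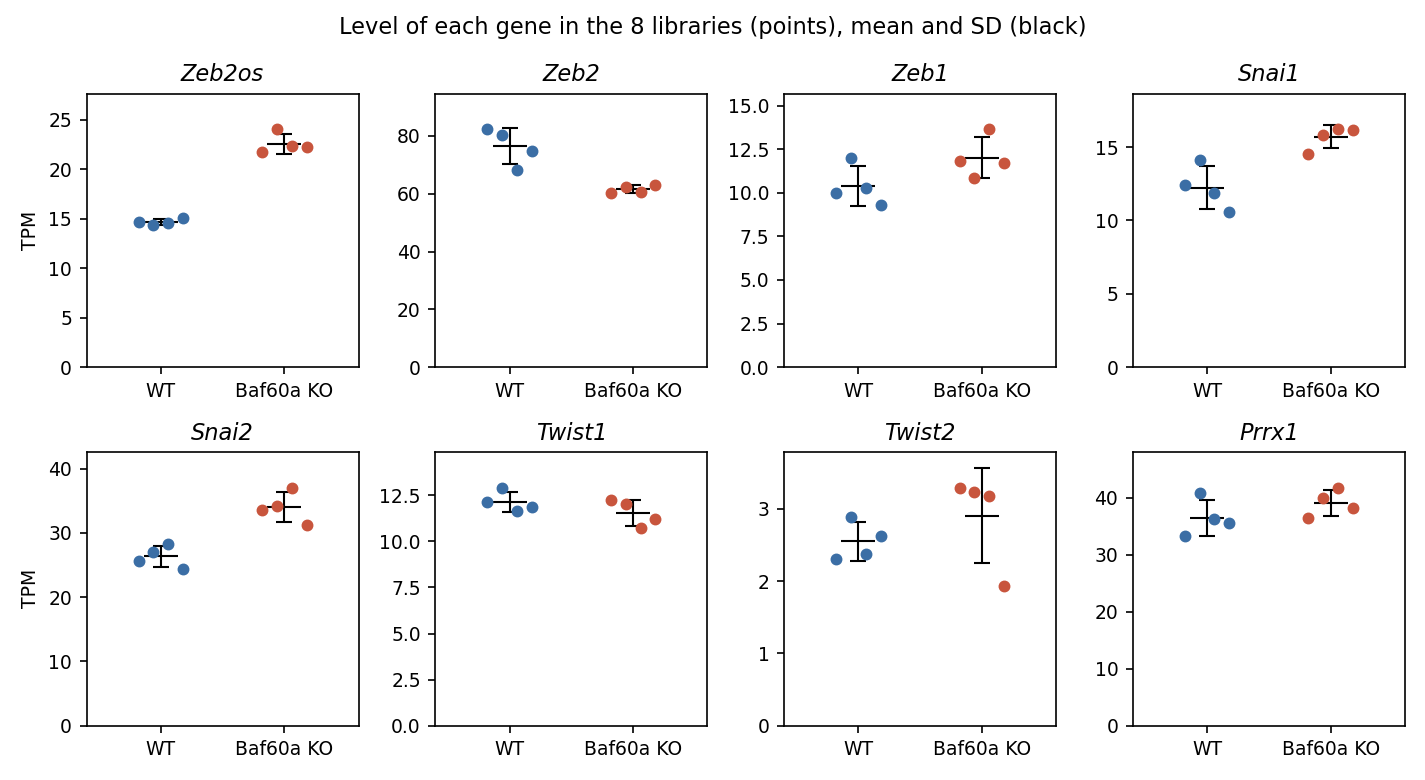
Level in TPM (y axis, from 0) of each of the 8 genes in the 4 WT (blue) and 4 Baf60a KO (red) libraries, with the mean and SD in black. Zeb2os, Snai1 and Snai2 lie higher in all 4 KO libraries, Zeb2 lies lower, and the other 4 genes overlap, with Twist2 at 1.93 TPM in 1 KO library.

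Ordered by TPM, which is corrected for length, the WT libraries held Zeb2 first, then Prrx1, Snai2 and Zeb2os, each with a range that did not reach the next. Snai1, Twist1 and Zeb1 followed at 12.25, 12.1 and 10.4 TPM with overlapping ranges, and Twist2 was last at 2.55 TPM. In KO, Prrx1 and Snai2 were no longer separated (36.39 to 41.75 and 31.30 to 37.05 TPM). Snai1 stood clear of Zeb1 and Twist1 in KO, and Zeb1 and Twist1 overlapped. The order from Zeb2 to Prrx1, Snai2, Zeb2os and Snai1 was otherwise the same in both groups.

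All 8 genes passed the filter on low values. Of the 7 genes other than Zeb2os, Snai1 and Snai2 rose, Zeb2 fell and 4 did not pass, where 4.4% of the 13933 genes tested rose, 1.21% fell and 5.61% were called in all. The groups did not overlap for these 3 genes, against 15.8% of all genes tested (11.9% with KO above WT and 3.96% with KO below). Since the genes were picked with results of this comparison known, their share is a description and nothing is read from it. Without WT replicates 3 and 4, Zeb2 alone was called of the 7. Without WT replicate 4, or without KO replicate 1, 2 or 3, none (0 of 7) passed. Over all genes, 372 of 13660 were called without WT replicates 3 and 4, and 212 to 229 in the other 4 settings, against 782 with all libraries. No left-out library and no other scaling turned the direction of any of the 8 genes.

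**Figure D4:**
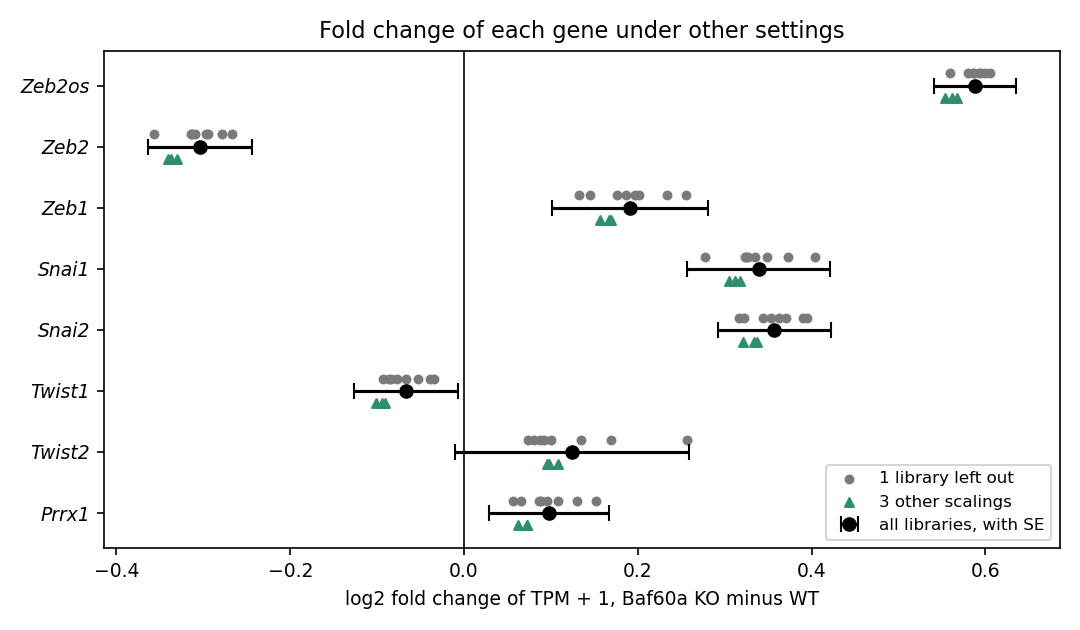
Log2 fold change of TPM + 1, Baf60a KO minus WT (x axis), of each gene with all libraries (black, bar for the SE), with 1 library left out (grey) and under 3 other scalings of TPM (green triangles). Zeb2os stays between 0.55 and 0.61, Zeb2 stays below 0, and Snai1 and Snai2 stay above 0 in all of these settings.

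Some markers of other cell types also differed between the groups. Of 10 stromal markers tested, 5 rose and none (0) fell, where 4.4% of all 13933 genes tested rose and 1.21% fell. Their median log2 fold change was 0.23 beside 0.03 over all genes. Their summed TPM was 3964 to 4365 in WT and 4683 to 5042 in KO, and none of the 12 fixed markers was listed at 0 throughout. Pdgfrb, a receptor of fibroblasts and pericytes, rose (27.4 ± 1.34 TPM in WT, 37.3 ± 1.26 in KO, log2 fold change 0.43, adjusted p = 0.00402). Thy1, a surface protein of stromal cells, rose from 3.105 ± 0.200 to 7.565 ± 0.837 TPM (1.06, adjusted p = 0.000808), and Col1a1 rose to 1873 ± 54.0 TPM (0.29, adjusted p = 0.0131, and 0.0573 without KO replicate 4). Dcn, Pdgfra and Cxcl12, which also mark fibroblasts, did not pass: Dcn stood at 5.915 TPM in WT and 3.96 in KO, Pdgfra at 11.2 and 11.8, and Cxcl12 at 232.4 and 232.3.

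Contractile genes were mostly higher in KO, with a log2 fold change above 0 for 6 of 7. Of 7 smooth muscle markers tested, 4 rose and none (0) fell (median 0.33), where 4.4% of all genes tested rose. Their summed TPM was 2412 to 2723 in WT and 3241 to 3447 in KO. Acta2 rose (1241 ± 61.1 TPM in WT, 1700 ± 38.5 in KO, log2 fold change 0.45, adjusted p = 0.0017), and Cnn1, calponin, from 21.2 ± 2.26 to 42.15 ± 2.69 (0.96, adjusted p = 0.000881). Actg2, enteric smooth muscle actin, rose from 157.6 ± 8.73 to 234.8 ± 7.26 TPM (0.57, adjusted p = 0.000894). Des went the other way but did not pass, at 3.31 and 2.28 TPM (-0.39, adjusted p = 0.0627). Every KO library of Des lay below every WT library. Of 7 endothelial markers, Pecam1 and Emcn rose, beside the same 4.4% of all genes. The endothelial list had a median log2 fold change of 0.42. Its summed TPM was 30.16 to 40.85 in WT and 43.19 to 56.57 in KO. The counts without WT replicates 3 and 4 were 3 stromal, 3 smooth muscle and 1 endothelial marker, where 372 of all 13660 genes tested were called. Stromal calls numbered 3 without WT replicate 4 or KO replicate 2 and 2 without KO replicate 4, and endothelial calls 1 without WT replicate 4 or any 1 KO library. Over all genes, 229 of 13797 were called without WT replicate 4. Without any 1 KO library 156 to 228 were called, against 782 with all libraries.

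Of 10 macrophage markers, 3 rose, Itgam among them, Lyz2 fell and 6 did not pass. Of all genes tested, 4.4% rose and 1.21% fell. Lyz2, the macrophage lysozyme, fell from 3993 ± 248 to 1927 ± 110 TPM and is the most abundant gene in the summed level, 5818 to 6763 TPM in WT and 4350 to 4685 in KO, against a median log2 fold change of 0.26. Without Lyz2 the macrophage sum ran the other way, at 2020 to 2454 TPM in WT and 2541 to 2635 in KO. Most of that sum was Cd68, at 1472 TPM in WT and 1791 in KO. A log2 fold change above 0 was found for 9 of the 10 markers. Lyz2 was the 1 macrophage marker called without WT replicates 3 and 4, without WT replicate 2 or 4 or without any 1 KO library, and 7 were called without WT replicate 1. Over all genes, 679 of 13842 were called without WT replicate 1 and 447 of 13837 without WT replicate 2. None of 6 neutrophil markers tested was called by limma (0, with 1 at an unadjusted p under 0.05, where 22.3% of all genes tested were). Their median log2 fold change was -0.25, with 1 of 6 above 0. The summed TPM of neutrophil markers was 200.7 to 295.1 in WT and 151.6 to 244.2 in KO. Dendritic markers summed to 1.72 to 2.57 TPM and lymphoid markers to 0.15 to 0.80 TPM over the 8 libraries. What the markers' differences contributed to the higher Snai1 and Snai2 and the lower Zeb2 was not tested.

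**Figure D5:**
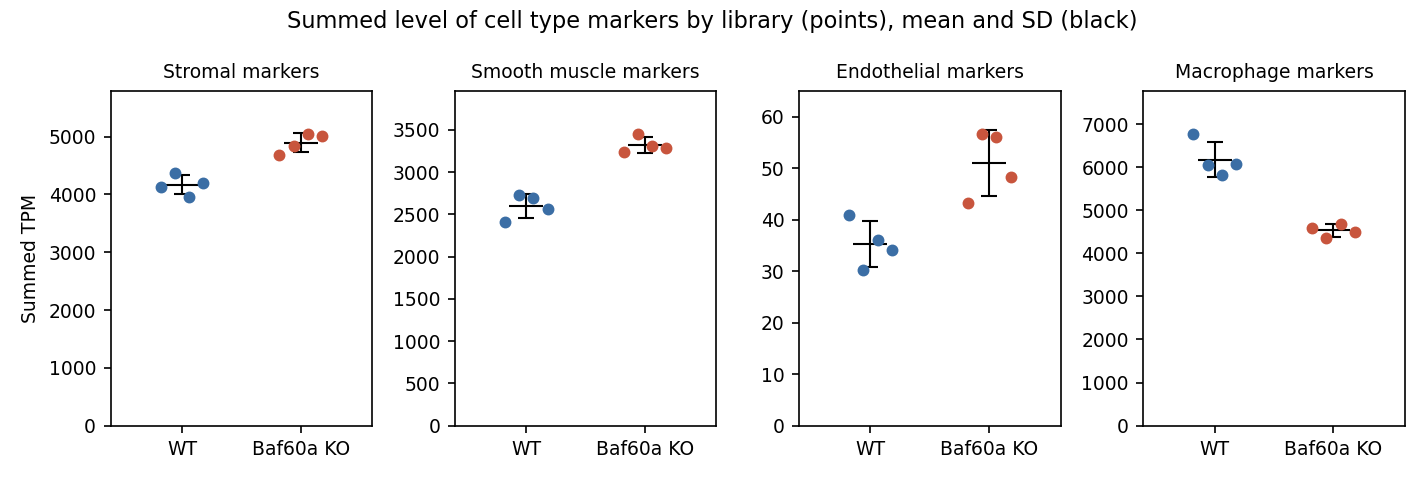
Summed TPM (y axes, from 0) of the fixed stromal, smooth muscle, endothelial and macrophage markers in the 4 WT (blue) and 4 Baf60a KO (red) libraries, with mean and SD in black. The first 3 sums lie higher in every KO library, and the macrophage sum, 5818 to 6763 TPM in WT and 4350 to 4685 in KO, lies lower through Lyz2: without it the sum is 2020 to 2454 and 2541 to 2635 TPM.

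Genes on which the ZEB and SNAIL repressors act were uneven. Epithelial genes, the classical repressed targets, were mostly at low levels in both groups: 7 of 31 passed the filter. None (0) of the 7 was called by limma, where 5.61% of all genes tested were. An unadjusted p under 0.05 was found for 1 of them, beside 22.3% of all genes. Cdh1, E-cadherin, stood at 0.055 TPM in WT and 0.030 in KO, Epcam at 0.030 and 0.0225, and Elf3 was listed at 0 in all libraries. Krt19, a keratin, was the most abundant of them at 20.2 ± 3.32 and 23.3 ± 1.13 TPM (adjusted p = 0.297), followed by the desmosomal plakophilin Pkp2 at 16.6 ± 1.44 and 16.6 ± 0.743 TPM (adjusted p = 0.964). The 6 precursors of the miR-200 family and miR-205, which repress ZEB messages, were listed at 0 in every library. So were Mir5129 and Gm22709, microRNA genes annotated over Zeb2 and Zeb1. Whether these libraries capture such short RNAs was not tested, so the zeros do not show that the microRNAs are absent.

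Some of the mesenchymal and matrix genes associated with these factors rose. Of 20 tested, 7 rose and none (0) fell, where 4.4% of all genes rose, and the median log2 fold change was 0.21 beside 0.03 over all genes. Tgfbi, a matrix protein induced by TGF-beta, was at 10.79, 11.31, 8.44 and 9.18 TPM in WT and at 15.57, 16.11, 16 and 16.65 TPM in KO (log2 fold change 0.65, adjusted p = 0.00818). Postn, periostin of activated fibroblasts, rose from 212.6 ± 12.05 to 292.7 ± 22.7 TPM (0.46, adjusted p = 0.00873). Tgfbi and Postn passed without any 1 library. Mmp14, a membrane collagenase, rose from 161.2 ± 7.97 to 193.6 ± 5.44 TPM (0.26, adjusted p = 0.0193), with adjusted p of 0.0624, 0.0627 and 0.0708 without KO replicates 2, 3 and 4. Cdh11, S100a4, Lox and Loxl2 also rose, whereas Vim was at 2250 ± 154 and 2464 ± 86.7 TPM (adjusted p = 0.198) and Cdh2, N-cadherin, at 16.5 ± 1.63 and 19.9 ± 0.608 TPM (adjusted p = 0.0699). Tgfbi, Postn and Mmp14 were the 3 of 20 called without WT replicates 3 and 4, and the count was 2 without KO replicate 4, 3 without KO replicate 1, 2 or 3, and 4 without WT replicate 4. The counts over all genes in these settings, given above, were also lower than with all libraries. The summed markers of stromal and smooth muscle cells given above were higher in the same libraries, and their part was not tested.

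None of 22 cofactors of ZEB and SNAIL proteins was called by limma (0, with 10 at an unadjusted p under 0.05, where 22.3% of all genes tested were), and their median log2 fold change was 0.09. The list holds the CtBP corepressors, the CoREST and NuRD complexes and the SMAD partners of the ZEB proteins. The most abundant were Ctbp1, at 139.9 ± 5.86 TPM in WT against 154.1 ± 10.01 in KO (adjusted p = 0.180), and the histone-binding Rbbp7, at 132.7 ± 5.45 and 126.7 ± 2.57 TPM (adjusted p = 0.384). Of 18 other factors linked to mesenchymal transitions 9 passed the filter, 1 rose and 8 did not pass (median 0.13). Among all genes tested, 5.61% were called. The riser was Tbx18, a T-box factor of mesenchymal progenitors, at 4.73 ± 0.353 TPM in WT and 6.395 ± 0.664 in KO (log2 fold change 0.37, adjusted p = 0.0400). Its adjusted p was below 0.05 without WT replicate 3 and reached up to 0.101 without any other 1 library. Tead1 was at 24.3 ± 2.23 and 26.6 ± 1.71 TPM (adjusted p = 0.371) and Sox4 at 26.7 ± 1.96 and 22.3 ± 0.930 TPM (log2 fold change -0.25, adjusted p = 0.0507). Every KO library of Sox4 lay below every WT library, and Sox4 was called in 6 of 19 alternatives: median-of-ratios scaling (adjusted p = 0.0344), quantile normalization (0.0446), protein-coding rescaling (0.0395), a filter of TPM over 5 (0.0414), robust moderation (0.0478) and without WT replicate 1 (0.0478). Over all 19 its adjusted p was 0.0344 to 0.1315.

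Dimer partners and inhibitors of the TWIST proteins split. Of 6 tested, Id2 fell, Id3 rose and 4 did not pass, among them the E proteins Tcf3, Tcf4 and Tcf12. Among all genes tested, 4.4% rose and 1.21% fell. Id2, an inhibitor of E proteins, was at 299.10, 274.13, 243.62 and 240.17 TPM in WT and at 209.41, 213.86, 190.33 and 203.32 TPM in KO (log2 fold change -0.37, adjusted p = 0.0318). Every KO library was below every WT library, as for Zeb2. The Id2 call was lost without WT replicate 2 or any 1 KO library (adjusted p up to 0.0916) and held without WT replicates 3 and 4 (-0.49, adjusted p = 0.0160). Id3 rose (58.96 ± 4.203 and 73.7 ± 7.22 TPM, log2 fold change 0.31, adjusted p = 0.0489), and its call held without WT replicate 3 and was lost without any other 1 library (adjusted p up to 0.119). Under median-of-ratios scaling, quantile normalization and rescaling over protein-coding genes the Id3 call was also lost (adjusted p = 0.0995, 0.0811 and 0.0807).

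Genes that work with Zeb2 in blood cells did not move one way. Of 10 genes tested from the circuit of ZEB2, ID2, NFIL3 and C/EBP factors that directs mononuclear phagocyte fates, Id2 fell, Cebpa rose and 8 did not pass, beside 5.61% called of all genes, with a median log2 fold change of 0.03, that of all genes. Cebpa, a myeloid factor, rose from 53.5 ± 5.69 to 66.8 ± 2.96 TPM (0.32, adjusted p = 0.0453), which held without WT replicate 1 and was lost without any other 1 library (up to 0.127). Batf3, the factor of cross-presenting dendritic cells, stood at 1.22 ± 0.506 TPM in WT against 2.47 ± 0.179 in KO (adjusted p = 0.0581). Nr1h3, the liver X receptor gene regulated by ZEB2 in tissue macrophages, was at 20.7 ± 2.29 and 17.5 ± 1.61 TPM (adjusted p = 0.189), and Irf8 at 76.3 ± 13.3 and 64.1 ± 4.98 TPM (adjusted p = 0.298). Without WT replicates 3 and 4, Id2 alone was called, where 372 of all 13660 genes tested were.

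The genes whose profile over the 8 libraries was most like each member were read as a description, by Pearson's r of log2(TPM + 1) among tested coding genes, with no p. Since a difference between the group means alone can raise r, it is given again after taking out the group means. For Zeb2os they were C1qtnf6 (r = 0.99), Thy1 (0.99), Hspb1 (0.987), Lyz1 (0.985) and Ccr1 (0.985), with 0.675, 0.627, 0.812, 0.237 and 0.148 after the group means were taken out. The likeness of Zeb2os to Lyz1 and Ccr1 was thus mostly one of group means. Zeb2 was most like Las1l (0.985), Serpinb6a (0.985), Fgfbp3 (0.984), Trim25 (0.983) and Pmf1 (0.980), which stayed between 0.915 and 0.974. Fgfbp3 and Trim25 fell, and the other 3 were not called.

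Snai1 was most like Lrp10 (0.991, and 0.968 after the group means were taken out), followed by Adipor2, Rbms2, Jup and Palld. Snai2 was most like Dag1 (0.991, then 0.951), the dystroglycan gene, followed by Zcchc24, Neo1, Tnfaip1 and Ehd3. Zeb1 was most like Smarcd3 (0.975, and 0.980 after the group means were taken out), the gene of BAF60C, a paralog of the deleted subunit. Smarcd3 itself was not called (log2 fold change 0.16). Twist1 was most like Pcm1 (0.956, then 0.95), Twist2 most like Gm32687 (0.944, then 0.94) and Prrx1 most like Cttn (0.965 both times), the cortactin gene. Libraries share the same scaling, so these values describe common profiles over 8 libraries. Each gene was picked for the highest r among all tested coding genes, and such picking by itself yields high values. No link between the genes is read from them, Smarcd3 included.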

How the data were processed

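RNA-seq of 8 mouse libraries was used, 4 WT and 4 Baf60a KO, grouped by their titles. Per the labels' protocols, NEBNext Ultra RNA libraries were read in pairs on a NovaSeq. The submitters' processing notes name Salmon 1.2.0, bcl2fastq and mm10. Annotation, strand setting and gene summing were not given in the sources used here. Values deposited by the authors, to 2 decimals, were taken as TPM because each library sums to 1000000. TPM keeps no depth, so no counting interval is given.

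Of 55421 gene identifiers, 55154 matched a GENCODE M21 symbol. The 13933 genes above 1 TPM in 4 or more libraries were compared as log2(TPM + 1) of the deposited values by limma (version 3.58.1, R version 4.3.3) with a trend of variance on mean, two-sided, and Benjamini-Hochberg adjustment over all of them. Only genes with an adjusted p under 0.05 are said to have risen or fallen. The log2 scale with a pseudocount of 1 understates changes of low genes. The fit was tested on simulated data in which 200 genes were changed. Lists are described by counts and medians, with no set test. Alternatives varied the filter, pseudocount, variance model, scaling, replicate block and libraries. Sequences come from GENCODE M21 and RefSeq.

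The members, gene lists, markers and alternatives were chosen with earlier results of these data known. Named are the members, Smarcd1, up to 3 called genes per list (or the 2 most abundant), neighbours within 500 kb, the 5 coding genes most like each member, and a few more list genes chosen after their values were seen. Similarity of the paralogs' transcripts was not tested.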

Additional observations from a re-analysis of the deposited data

Results flagged for a closer look

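In groups of 4 libraries, 1 library was set apart when its gap to the nearest other took up nearly the whole range of its group. Chance sets apart about 1 in 20 groups, and 32 groups of 4 were examined. Twist2 in KO replicate 4 was at 1.93 TPM, against 3.17 to 3.29 TPM in the other 3 KO libraries. Summed dendritic cell markers in WT replicate 4 were at 1.96 TPM, against 2.33 to 2.38 TPM in the other 3 WT libraries. No explanation of either was tested.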

How the results depend on the processing

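Directions of all 8 genes held in every setting, but calls near the threshold did not. Counts of called genes, 782 with all libraries, were 364 with no filter on low values, 209 with the replicate block and 372 without WT replicates 3 and 4, and 156 to 679 when 1 library was left out. With 1 library left out the count depended on the library, from 156 without KO replicate 4 to 679 without WT replicate 1. What the number of samples contributed to the lower counts was not tested. Zeb2 was not called with no filter (-0.30, adjusted p = 0.0558), and leaving out 1 library gave -0.36 to -0.27. Snai1 was not called with no filter (0.34, adjusted p = 0.0968), without a mean-variance trend (0.34, 0.0580), after quantile normalization (0.31, 0.0596) or without WT replicates 3 and 4 (0.23, 0.122), and 1 library left out gave 0.28 to 0.40. Snai2 was not called without WT replicates 3 and 4 (0.35, 0.0512), and 1 library left out gave 0.32 to 0.40. Zeb2os was at 0.49 with a pseudocount of 5, and Twist2 had no value with a filter of TPM over 5. Median-of-ratios scaling gave 920 calls (516 higher, 404 lower), quantile normalization 694 (440, 254) and protein-coding rescaling 919 (598, 321), against 613 and 169, and the median of all genes moved by less than 0.1.

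Replicate numbers are shared by both groups. Over all genes tested, deviations of same-numbered libraries from their group means had correlations of -0.113, 0.012, 0.008 and -0.016. Those of differently numbered libraries were -0.133 to 0.107. Whether the numbers pair the samples cannot be decided from this, since a shared effect could lie in some genes only. With the replicate block Zeb2 (-0.30, adjusted p = 0.0696) and Snai1 (0.34, 0.111) were not called and Snai2 was (0.0344). The block also ended the calls of Pecam1 (0.0633), Emcn (0.0815), Mmp14 (0.0591), Tbx18 (0.0658) and Cebpa (0.0841), which left no endothelial marker called, and left 3 of the 20 mesenchymal genes and 3 of the 10 stromal markers called. Of 19 called genes, members left out, that were followed through the alternatives, 9 were called in all 19 alternatives (Tgfbi, Postn, Thy1, Pdgfrb, Cnn1, Actg2, Acta2, Lyz2 and Smarcd1), and 10 lost the call in 2 to 13 of them.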
